A study of Homo sapiens with 12 samples.

Results

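A set of 70 genes that HK2 cells already expressed, and that both short-chain fatty acids (SCFAs) raised over 4-fold in every library, is described here. HK2 cells are human tubular epithelial cells (TECs) of the proximal tubule that were immortalized and grow as a line. A gene was a member when its CPM (the expected count over the library sum, scaled to 1e6) were at least 3 in each of the 4 libraries without an SCFA, and when each of the 8 SCFA libraries held over 4 times the highest of those 4. The rule found 71 of 58278 listed rows. The pseudoautosomal gene ASMTL is listed once on each sex chromosome with the same values and was counted once, which leaves 70 genes, and 11894 rows reached the CPM floor. These values chose the members, so the rise against cells without an SCFA is a description and carries no test.

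The cells were untreated (Ctrl), or received 5 ng/mL TNF-α for 3 h (TN). In the other groups the same TNF-α was combined with an SCFA for 24 h. Propionate at 15 mM or butyrate at 3 mM was added before TNF-α in PRTN and BUTN, and after it in TNPR and TNBU. Each of the 6 groups held 2 biological replicates. No group received an SCFA without TNF-α, and cells kept for 24 h after TNF-α without an SCFA were not analysed here, so these parts of a response cannot be told apart. The propionate and butyrate doses differ, so compound and dose cannot be told apart either. The labels share a treatment text on thapsigargin and JQ1. The fields of the single libraries give TNF-α and SCFAs, and those were followed. Library sums ran from 27269986 to 33851130 expected counts, so that 3 counts correspond to 0.0886 to 0.11 CPM.

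Propionate and butyrate are short fatty acids that gut bacteria make from fibre. Besides acting on cell surface receptors and serving as fuel, they inhibit histone deacetylases, the enzymes that take acetyl groups off histones and other proteins. Genes that such inhibitors are known to raise include the cell cycle inhibitor CDKN1A, TXNIP and CLU, which are among the 70. TNF-α acts mainly through the NF-κB and MAP kinase pathways, and the serum amyloid A genes SAA1 and SAA2 are acute-phase genes that such signals are known to raise in liver and epithelium.

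The cells were checked against their markers. Of 10 genes of kidney epithelium, 8 were at or over the CPM floor, among them PAX8, KRT8, KRT18, CDH2 and the member KRT19. Of 13 proximal tubule genes, only GGT1 reached that floor, while SLC22A6 was at 0 in all libraries and LRP2, MME, HNF4A and VIL1 were at 0 in all Ctrl and TN libraries. PTPRC, which all leukocytes carry, did not exceed 0.156 CPM, and the summed macrophage list ran from 37.3 to 43.6 CPM without an SCFA and from 45.7 to 76.7 with one, nearly all of it CD68 and MSR1. The lymphocyte list, nearly all of it IL7R, ran from 42 to 65.5 CPM without and from 9.41 to 13.1 CPM with an SCFA. The endothelial list ran from 0.551 to 0.655 CPM without and from 3.59 to 6.23 CPM with an SCFA. In each SCFA group 5 or 6 of its 6 tested genes were called higher than TN, where 23.1% to 25% of all tested genes were. The filter for testing used all 12 libraries, so genes near 0 without an SCFA could be tested only through the SCFA libraries. This count of calls is thus partly fixed by the filter and is a description. In bulk RNA, a change in the share of cells and a change in RNA per cell cannot be told apart.

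RefSeq promoters of GRCh38.p14, each 300 bases long from 250 before the start to 50 after it, were at hand for 44 of the 70 genes (62.9%). A comparison of base composition or motif content over the set was void, since fewer than 80% had a sequence. The promoters of 6 members are shown 5′ to 3′. CDKN1A and TXNIP stand for the genes known to answer deacetylase inhibitors, AREG and ANKRD1 for members that encode a growth factor and a transcription cofactor, and DKK1 and CRISPLD2 passed a test between groups below. Capitals mark matches on either strand to the GC box GGGCGG, the CCAAT box CCAAT, the TATA box TATAAA, the E-box CACGTG, the cAMP response element TGACGTCA and the AP-1 site TGANTCA.
CDKN1A, chr6:36678464-36678763, plus strand: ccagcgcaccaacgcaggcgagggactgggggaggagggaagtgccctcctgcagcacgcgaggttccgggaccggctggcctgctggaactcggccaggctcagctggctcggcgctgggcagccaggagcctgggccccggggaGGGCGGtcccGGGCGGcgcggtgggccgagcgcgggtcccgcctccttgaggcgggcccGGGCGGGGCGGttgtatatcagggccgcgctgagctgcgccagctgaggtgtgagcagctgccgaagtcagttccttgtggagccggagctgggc
TXNIP, chr1:145996530-145996829, minus strand: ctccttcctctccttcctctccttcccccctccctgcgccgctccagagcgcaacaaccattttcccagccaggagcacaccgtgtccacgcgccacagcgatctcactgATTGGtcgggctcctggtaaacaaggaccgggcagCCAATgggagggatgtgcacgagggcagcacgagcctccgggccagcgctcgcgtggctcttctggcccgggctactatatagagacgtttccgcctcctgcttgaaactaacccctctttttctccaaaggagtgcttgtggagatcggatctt
AREG, chr4:74444886-74445185, plus strand: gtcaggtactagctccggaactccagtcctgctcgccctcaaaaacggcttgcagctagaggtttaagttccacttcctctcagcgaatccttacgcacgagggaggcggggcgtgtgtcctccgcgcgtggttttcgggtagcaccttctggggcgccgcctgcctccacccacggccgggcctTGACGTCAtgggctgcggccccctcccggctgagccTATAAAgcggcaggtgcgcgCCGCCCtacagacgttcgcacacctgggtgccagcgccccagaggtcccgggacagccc
ANKRD1, chr10:90921038-90921337, minus strand: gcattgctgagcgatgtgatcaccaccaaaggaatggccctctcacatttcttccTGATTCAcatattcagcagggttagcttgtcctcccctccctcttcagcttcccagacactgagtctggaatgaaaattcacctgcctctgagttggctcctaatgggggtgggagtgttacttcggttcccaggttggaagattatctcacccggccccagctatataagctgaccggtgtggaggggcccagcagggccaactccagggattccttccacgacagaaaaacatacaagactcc
DKK1, chr10:52314031-52314330, plus strand: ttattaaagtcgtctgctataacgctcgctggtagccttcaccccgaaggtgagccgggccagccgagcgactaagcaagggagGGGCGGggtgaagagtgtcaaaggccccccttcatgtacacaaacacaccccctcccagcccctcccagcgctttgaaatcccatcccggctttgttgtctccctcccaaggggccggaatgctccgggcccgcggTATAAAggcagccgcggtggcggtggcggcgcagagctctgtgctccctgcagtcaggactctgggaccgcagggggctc
CRISPLD2, chr16:84819735-84820034, plus strand: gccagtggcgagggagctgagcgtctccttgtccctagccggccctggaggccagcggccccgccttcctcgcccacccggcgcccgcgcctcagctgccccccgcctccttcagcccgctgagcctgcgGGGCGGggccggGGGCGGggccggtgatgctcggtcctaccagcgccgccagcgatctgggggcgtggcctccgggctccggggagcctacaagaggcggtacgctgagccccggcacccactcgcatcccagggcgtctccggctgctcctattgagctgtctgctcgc

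Of 35116 promoters of this length, 45.0% hold the GC box, 34.6% the CCAAT box, 11.5% the TATA box, 7.26% the E-box, 1.85% the cAMP response element and 7.71% the AP-1 site. The CDKN1A window holds 4 GC boxes, the nearest pair of which share a base, and the RefSeq start lies 2254 bases inside the outermost GENCODE start. TXNIP holds 2 CCAAT boxes on opposite strands. AREG holds a TATA box beginning 29 bases before the start, a cAMP response element beginning 65 bases before it and a GC box. DKK1 holds a TATA box 30 bases before the start and a GC box, CRISPLD2 holds 2 GC boxes, and ANKRD1 holds 1 AP-1 site 195 bases before the start. Matches of different motifs did not overlap. G+C content ran from 52.7% in ANKRD1 to 75.3% in CRISPLD2.

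The 70 genes made up 0.161% to 0.166% of all counts in the Ctrl and TN libraries and 1.42% to 1.93% in the SCFA libraries. The 4 libraries without an SCFA thus lay together, and the 8 with one stood apart from them without overlap, as the rule fixes. TGM2, SAA1, SLC2A3, SAA2, ANKRD1 and TXNIP held 61.2% of the set's CPM in the SCFA libraries and 55.8% in the others. In the mean of Ctrl and TN, 44 members lay under 10 CPM. The mean of the SCFA libraries exceeded that of Ctrl and TN by 4.54-fold (ASIC1) to 23.9-fold (KRT19), with a median of 7.68-fold. The lowest SCFA library over the highest Ctrl or TN library gave a median ratio of 5.24, and 11 members had a ratio over 10.

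**Figure D1:**
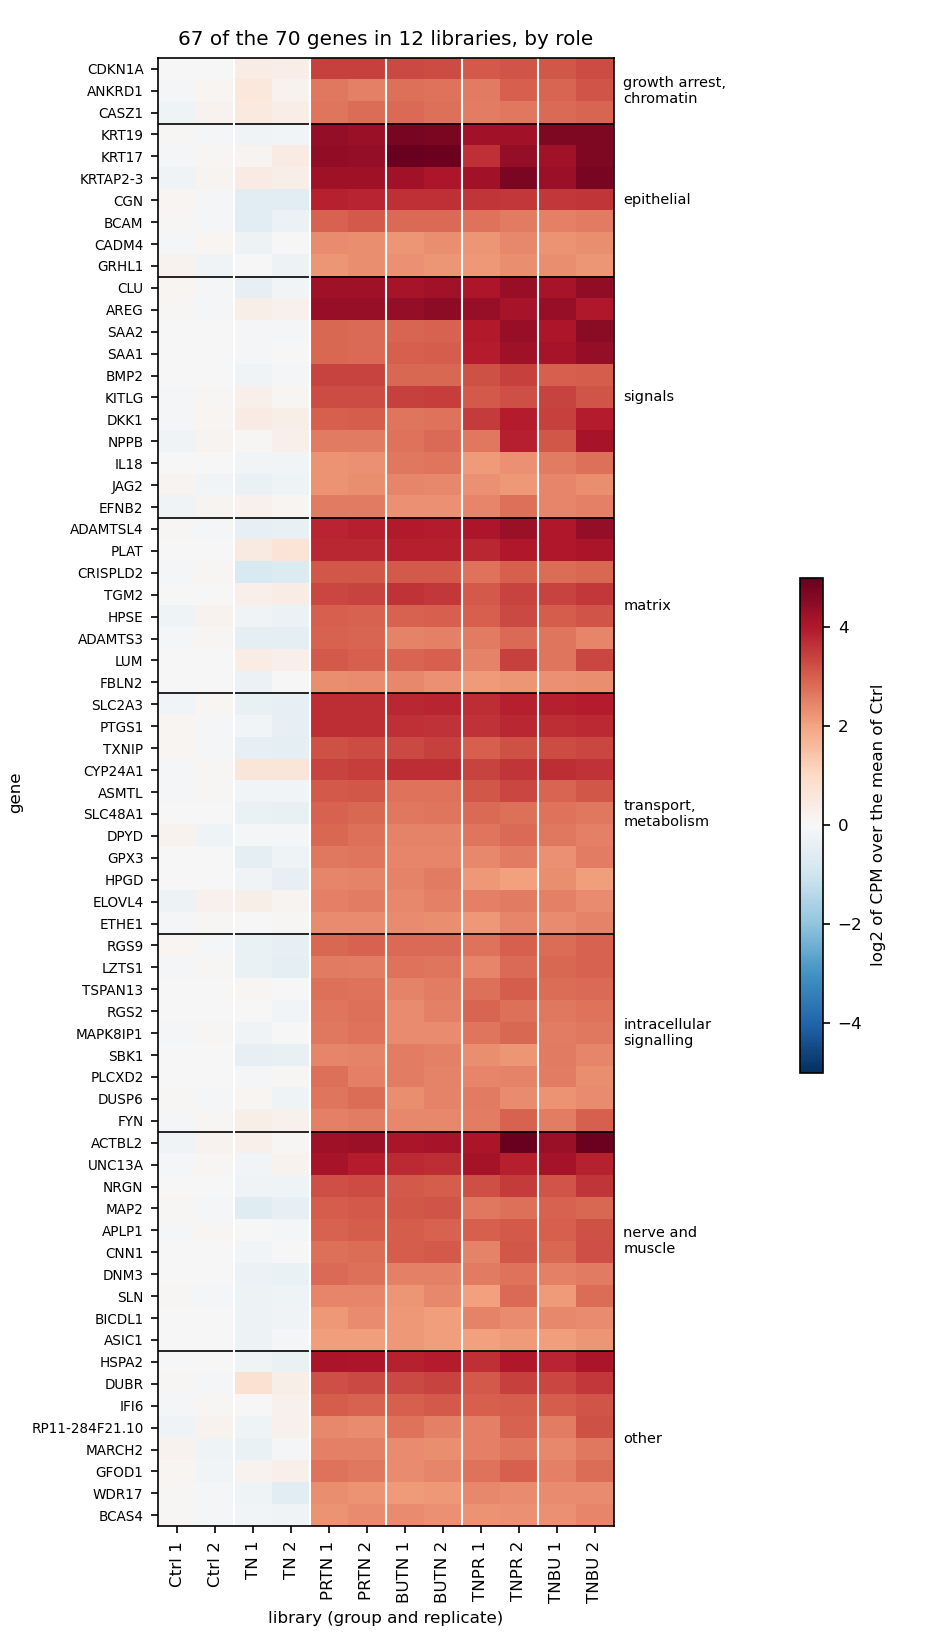
Each row is one of 67 of the 70 genes, grouped by role, and each column one of the 12 libraries, with the colour giving log2 of CPM over the mean of Ctrl. The Ctrl and TN columns are near white and the 8 SCFA columns are red throughout, with KRT19, KRT17, ACTBL2 and CLU among the darkest rows and SAA1, SAA2, DKK1 and NPPB darker in TNPR and TNBU than in PRTN and BUTN.

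The edges of the set are as follows. Just inside the ratio of 4 were SLN (4.01), ANKRD1 (4.03), GRHL1 (4.05) and ASIC1 (4.05). Just outside were MAPRE3 (3.95), RP11-379H18.1 (3.95), TRAPPC9 (3.82) and FGFR2 (3.80), and 4 genes passed in 7 of the 8 SCFA libraries. At the floor, UNC13A (lowest value 3.03 CPM) and CASZ1 (3.11 CPM) were inside, and LRCH2 (2.92 CPM) and CKMT1B (2.78 CPM) were outside. The floor left out 997 genes with a ratio over 4, and 65 genes at the floor were lowered over 4-fold in every SCFA library. There is no gap in the ratios at the threshold.

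**Figure D2:**
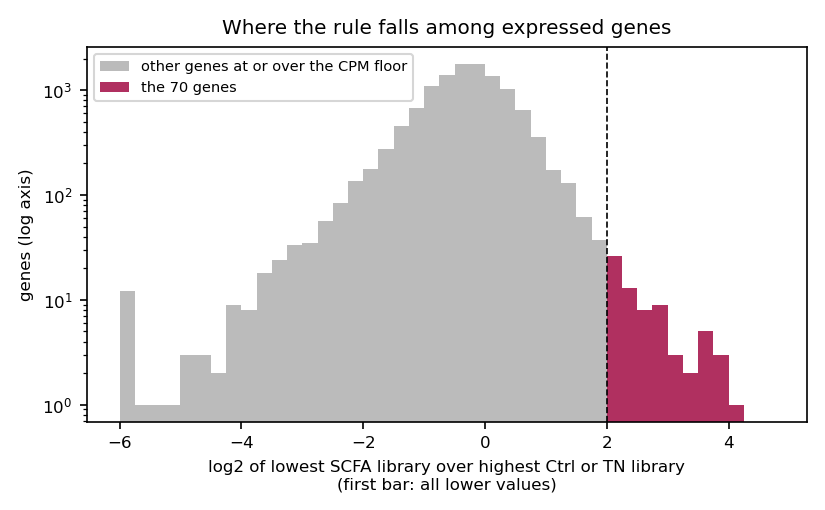
The horizontal axis is log2 of the lowest SCFA library over the highest Ctrl or TN library, and the bars count genes at or over the CPM floor on a log axis. The 70 genes fill the tail to the right of the dashed line at a ratio of 4, which joins the rest of the distribution without a break.

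Among genes of growth arrest and chromatin, CDKN1A encodes p21, an inhibitor of cyclin-dependent kinases. It measured 28.0 and 27.2 CPM (Ctrl), 36.0 and 35 (TN), 294 and 296 (PRTN), 274 and 265 (BUTN), 234 and 243 (TNPR), and 239 and 267 (TNBU). TN lay above Ctrl, and propionate after TNF-α lay below propionate before it, without overlap. ANKRD1, a cofactor that is a common readout of YAP and TAZ activity, measured 119.9 to 186 CPM without an SCFA and 747 to 1132 CPM with one. CASZ1, a zinc finger factor, measured 3.11 to 4.96 CPM without and 20.9 to 26.7 CPM with an SCFA.

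The 8 epithelial genes had ratios of means from 5.00 to 23.9 with a median of 11.99. Medians of the other role groups ran from 5.94 to 9.19, and the ranges overlapped, with 4.54 to 20.2 for nerve and muscle genes. The 20.2 belongs to the actin-like gene ACTBL2, and the next gene of that group was UNC13A at 15.3. These ratios come from the values that chose the members, so the order of the groups is a description. KRT19, a keratin of simple epithelia, measured 4.91 and 4.42 CPM (Ctrl), 4.13 and 4.19 (TN), 98.0 and 93.2 (PRTN), 123.7 and 120.4 (BUTN), 85.2 and 85.6 (TNPR), and 119.7 and 118.8 (TNBU). Butyrate libraries were above propionate libraries at both times. KRT17, a keratin of stressed and regenerating epithelia, measured 10.5 and 11.6 CPM (Ctrl), 12.1 and 14.5 (TN), 239 and 229.9 (PRTN), 336 and 331 (BUTN), 137 and 229 (TNPR), and 200.2 and 280.0 (TNBU). Its replicates lay close together before TNF-α and far apart after it. KRTAP2-3, a keratin-associated protein, measured 7.88 to 11.77 CPM without and 147 to 238 CPM with an SCFA. CGN encodes cingulin of the tight junction plaque and measured 4.26 to 6.74 CPM without and 74.0 to 90.1 CPM with an SCFA. The laminin receptor BCAM, the adhesion molecule CADM4 and the epithelial transcription factor GRHL1 had ratios of means from 5.00 (GRHL1) to 7.83 (BCAM). CDH1, the epithelial cadherin, was not a member because it lay under the floor, at 0.255 CPM in Ctrl and 10.3 to 14.4 CPM in the SCFA groups.

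The 11 secreted and membrane-bound signals include the members that differed most between the SCFA groups. SAA1 measured 147 and 141 CPM (Ctrl), 136 and 146 (TN), 1039 and 1033 (PRTN), 1132 and 1177 (BUTN), 2199 and 2715 (TNPR), and 2492 and 3045 (TNBU). SAA2 measured 94.7 and 91.4 CPM (Ctrl), 88.8 and 86.1 (TN), 673 and 664 (PRTN), 691 and 717 (BUTN), 1433 and 1910 (TNPR), and 1554 and 2142 (TNBU). Neither was called between TN and Ctrl, and the groups given an SCFA after TNF-α were above those given it before, without overlap. The 2 genes lie 17.6 kb apart, are near-identical and have non-whole counts in every library, so the split of reads between them is uncertain. Their sum shows the same order, at 224.8 to 242 CPM without an SCFA, 1697 to 1894 CPM in PRTN and BUTN, and 3632 to 5187 CPM in TNPR and TNBU.

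CLU, the extracellular chaperone clusterin, measured 12.9 to 18.2 CPM without an SCFA and 284 to 369.9 CPM with one. AREG, a ligand of the EGF receptor, measured 11.2 to 13.98 CPM without and 185 to 253 CPM with an SCFA. DKK1, a secreted WNT antagonist, measured 12.2 and 14.2 CPM (Ctrl), 17.4 and 16.2 (TN), 104 and 106 (PRTN), 83.7 and 87.6 (BUTN), 150.3 and 202 (TNPR), and 142 and 199 (TNBU). NPPB, the B-type natriuretic peptide gene, measured 9.16 and 11.3 CPM (Ctrl), 10.6 and 12.2 (TN), 62.3 and 62.1 (PRTN), 67.7 and 72.3 (BUTN), 64.2 and 150.5 (TNPR), and 88.7 and 179.6 (TNBU). For DKK1 every library of the later addition was above every library of the earlier one. For NPPB 1 library of TNPR lay at the level of PRTN and BUTN. BMP2 measured 16.2 to 18.8 CPM without an SCFA, 168 to 197 with propionate and 135 to 150.2 with butyrate. IL18 measured 8.09 to 9.12 CPM without, 39.5 to 43.6 with propionate and 54.8 to 60.6 with butyrate. BMP2 was thus higher with propionate and IL18 higher with butyrate, with no overlap of libraries across both times. The KIT ligand KITLG, the ephrin EFNB2 and the Notch ligand JAG2 had ratios of means of 9.17, 5.34 and 5.52.

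Among matrix genes, TGM2 encodes transglutaminase 2, which crosslinks matrix proteins. It measured 311 and 320.4 CPM (Ctrl), 379 and 411 (TN), 3178 and 3245 (PRTN), 3856 and 3672 (BUTN), 2677 and 3278 (TNPR), and 3324 and 3689 (TNBU). PLAT, tissue plasminogen activator, measured 7.85 and 7.92 CPM in Ctrl, 10.7 and 12.7 in TN, and 108 to 135 with an SCFA. CRISPLD2, a secreted glycoprotein, measured 9.42 and 10.1 CPM in Ctrl, 5.74 and 6.03 in TN, and 63.5 to 84.2 with an SCFA. TN was above Ctrl for PLAT and below it for CRISPLD2, and both were far under every SCFA library. ADAMTSL4, a fibrillin-binding protein, measured 3.77 to 5.22 CPM without and 70.9 to 106 CPM with an SCFA. ADAMTS3, a procollagen peptidase, measured 32.1 to 46.9 and 244 to 348 CPM. FBLN2, LUM and HPSE, which encode fibulin 2, lumican and heparanase, had ratios of means of 5.07, 7.20 and 8.92. LUM is on a fibroblast marker list of 8 genes, whose summed level was 49.4 to 57.7 CPM without and 214 to 262 CPM with an SCFA, most of it COL1A1. Of its 7 genes that are not members, 4 or 5 were higher than TN in each SCFA group by limma-voom and 1 or 2 lower. Of all tested genes, 23.1% to 25% were called higher and 14.8% to 16.9% lower in these comparisons. COL1A1 (38.0 CPM in TN and 168 to 199.9 in the SCFA groups), COL3A1 (0.120 and 0.944 to 1.24), COL1A2 (0 and 0.210 to 0.430) and PDGFRA (0 and 0.546 to 0.758) were higher in all 4 SCFA groups and PDGFRB in BUTN and TNBU. COL1A2 and PDGFRA passed the filter for testing through the SCFA libraries, so their calls are partly fixed by it. DCN was lower in all 4 SCFA groups and THY1 in all but TNBU. The part of these genes in the values of LUM was not tested.

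Of the genes of transport and metabolism, SLC2A3, the glucose transporter GLUT3, measured 108.5 and 127 CPM (Ctrl), 91.6 and 88.7 (TN), 1522 and 1503 (PRTN), 1614 and 1650 (BUTN), 1530 and 1734 (TNPR), and 1760 and 1807 (TNBU). TXNIP, which binds thioredoxin and restrains glucose uptake, measured 91.6 and 78.9 CPM in Ctrl, 63.5 and 62.7 in TN, and 675 to 901 with an SCFA. CYP24A1, which inactivates vitamin D, measured 37.1 and 41.0 CPM in Ctrl, 58.8 and 59.3 in TN, and 406 to 506 with an SCFA. TN lay above Ctrl for CYP24A1 and below it for the other two. PTGS1, the cyclooxygenase 1 gene, measured 5.505 to 7.78 CPM without and 88.0 to 98.3 CPM with an SCFA. HPGD, which degrades prostaglandins, measured 6.06 to 8.03 and 33.0 to 48.0 CPM. The plasma glutathione peroxidase GPX3 measured 32.9 to 45.5 and 215 to 282 CPM. The pyrimidine-degrading enzyme DPYD, the heme transporter SLC48A1, the sulfur dioxygenase ETHE1, the fatty acid elongase ELOVL4 and ASMTL had ratios of means from 5.11 (ETHE1) to 8.47 (ASMTL).

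The 10 genes of intracellular signalling had ratios of means from 5.53 to 8.23 with a median of 6.28. DUSP6, which switches off ERK, measured 13.5 to 16.4 CPM without and 74.7 to 108 CPM with an SCFA. RGS2 and RGS9, which shorten G protein signals, had ratios of means of 6.52 and 8.23. The others included the kinases FYN and SBK1, the JNK scaffold MAPK8IP1, the tetraspanin TSPAN13, LZTS1 and PLCXD2.

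A further 10 members form the role group of nerve and muscle genes, most of them known from these tissues. UNC13A, which primes synaptic vesicles for release, measured 3.03 to 3.80 CPM without and 43.5 to 60.9 CPM with an SCFA. MAP2, a dendritic microtubule protein, measured 6.44 to 10.1 and 60.9 to 85.8 CPM. ACTBL2, an actin-like gene, measured 6.21 and 7.96 CPM (Ctrl), 8.503 and 7.31 (TN), 135 and 138 (PRTN), 120.1 and 125 (BUTN), 121 and 217 (TNPR), and 142 and 213 (TNBU). The lowest SCFA library exceeded the highest other one by 11.4 times for UNC13A, 6.05 times for MAP2 and 14.1 times for ACTBL2. The neurogranin gene NRGN, the amyloid precursor-like gene APLP1, the dynamin DNM3, the proton-gated channel ASIC1, BICDL1, the calponin gene CNN1 and the sarcolipin gene SLN had ratios of means from 4.54 (ASIC1) to 10.2 (NRGN). MAP2 is on a neuron marker list of 10 genes, whose summed level was 364 to 434 CPM without and 628 to 706 CPM with an SCFA, most of it TUBB3. In each SCFA group, 23.1% to 25% of all tested genes were called higher than TN and 14.8% to 16.9% lower. Of the 7 tested genes of this list that are not members, 5 were higher than TN and 0 lower in each SCFA group by limma-voom. These were SYT1 (16.8 CPM in TN and 43.6 to 49.9 in the SCFA groups), SNAP25 (7.27 and 14.6 to 20.8), NEFL (0.674 and 3.15 to 4.49), RBFOX3 (0.103 and 0.287 to 0.429) and ELAVL3 (0 and 6.40 to 9.62). ELAVL3, at or near 0 without an SCFA, passed the filter for testing through the SCFA libraries, so its call is partly fixed by it. TUBB3 and NEFM were not called, ELAVL4 was at 0 and STMN2 at no more than 0.0639 CPM in every library. The part of these genes in the values of MAP2 was not tested.

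The remaining 8 members had ratios of means from 5.24 to 16.8, led by HSPA2, a member of the heat shock protein 70 family, at 7.21 to 9.16 CPM without and 114 to 156 CPM with an SCFA. The interferon-inducible gene IFI6 had a ratio of means of 7.81. The noncoding RNA genes were DUBR and RP11-284F21.10, the latter named by its clone. The ubiquitin ligase gene MARCH2, BCAS4, WDR17 and GFOD1 had ratios of means from 5.24 (BCAS4) to 6.04 (MARCH2).

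**Figure D3:**
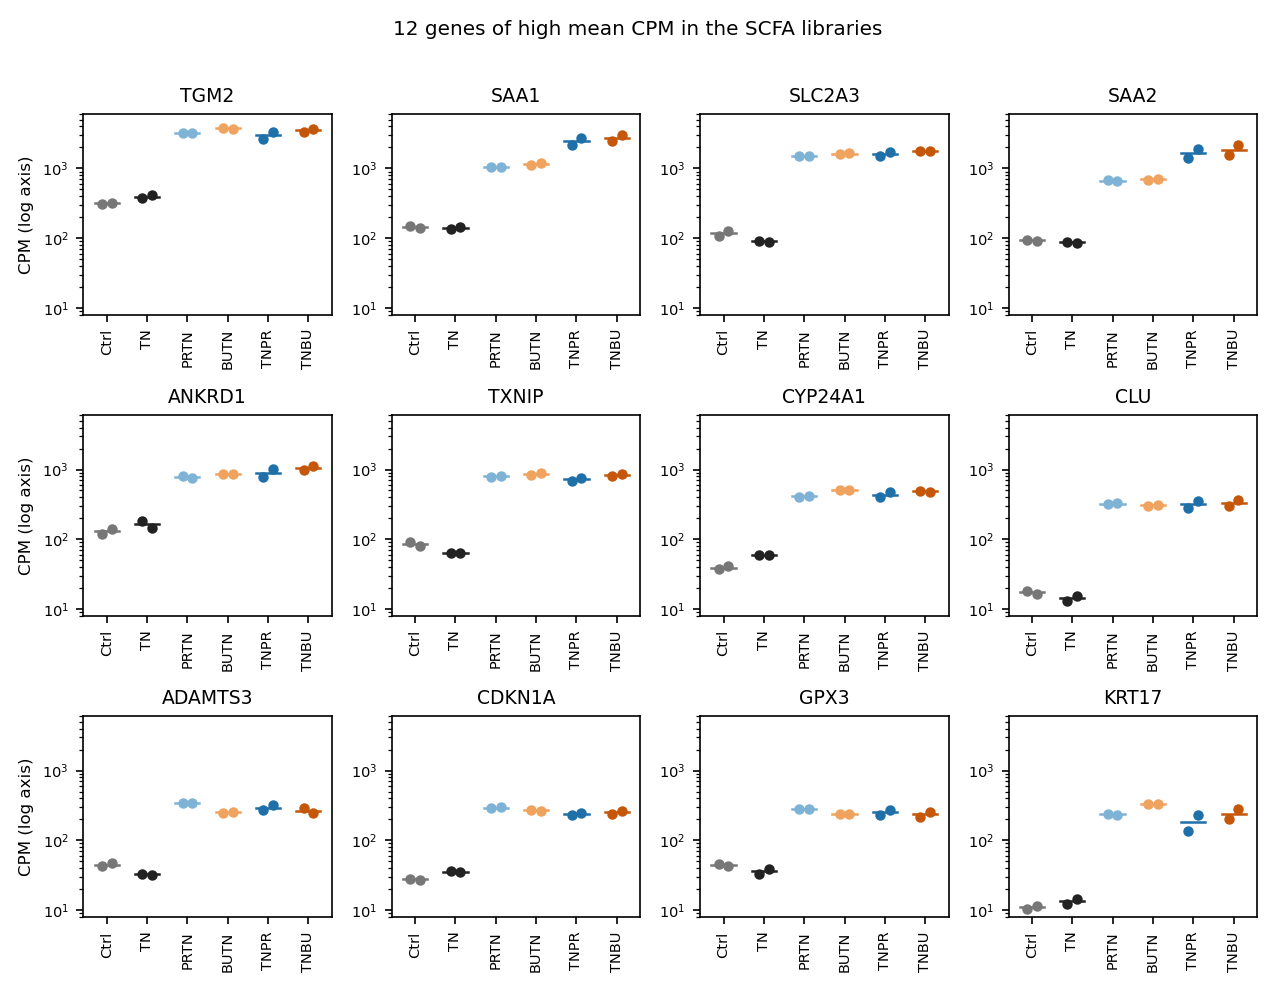
Points are CPM in single libraries and short lines are group means of 2 replicates, on a log axis, for 12 members of high mean CPM in the SCFA libraries. Ctrl and TN lie at the bottom of each panel, and SAA1 and SAA2 show a second step, at 1433 to 3045 CPM in TNPR and TNBU.

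Levels of different genes were compared per length, as CPM per kb of merged exons. On this scale and averaged over the SCFA libraries, SAA1 came first at 1746 CPM per kb, ahead of SAA2 at 546, ANKRD1 at 502, TGM2 at 423, SLC2A3 at 226, TXNIP at 224, KRTAP2-3 at 207 and SLN at 196. Merged exons join all annotated transcripts of a gene, and measure 1062 bases for SAA1 and 2242 for SAA2. In mean CPM SAA1 and SAA2 stood at 1854 and 1223, and the split of reads between them is uncertain. KRT19, first by its ratio, stood at 45.2 CPM per kb, and CASZ1 was the lowest at 2.12. In Ctrl and TN the range was from 0.267 (DUBR) to 134 CPM per kb (SAA1).

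The first test asked how the 70 genes differed between TN and Ctrl. The rule used the lowest and the highest of these 4 libraries, though not the difference between the groups. A gene raised in either group had to clear a higher bar, so the test is not independent of the rule. The test was made with limma-voom over 24342 genes, and a call needed a fold over 1.5 and an adjusted p under 0.05. Log2 differences are on the TMM scale of this fit. CYP24A1 was higher in TN by 0.66 ± 0.086 (SE, n = 2 per group; adjusted p = 0.00113) and PLAT by 0.62 ± 0.14 (adjusted p = 0.0279). CRISPLD2 fell by 0.67 ± 0.15 (adjusted p = 0.0279). These were 2 members higher and 1 lower of 70, where 0.764% and 0.534% of all tested genes were called, and 1.24% and 0.706% of the genes at the floor. Without a fold threshold CDKN1A was also higher, by 0.42 (adjusted p = 0.00967), and TXNIP and CGN were lower, with log2 differences of -0.38 (adjusted p = 0.0451) and -0.50 (adjusted p = 0.0486), against 2.26% and 1.25% of all tested genes at this threshold, where members numbered 3 in each direction. The calls for PLAT and CRISPLD2 were lost when single libraries were left out, PLAT without either Ctrl library or TN replicate 2 (adjusted p 0.142 to 0.178) and CRISPLD2 without any 1 of the 4 (0.1105 to 0.1945). CYP24A1 was called in each of these fits. Without a fold threshold, CDKN1A (adjusted p 0.0568 to 0.0935) and CGN (0.0834 to 0.313) did not pass with any 1 of the 4 left out, and TXNIP passed only without Ctrl replicate 2 (0.0459 to 0.335).

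For the other 67 genes no call was made. The median log2 difference of the 70 was -0.07, and for 34 of them the 95% interval lay within 1.5-fold in either direction. For the other 36 it reached 1.5-fold. In CPM, 17 members (24.3%) had both TN libraries above both Ctrl libraries, where 21% of the genes at the floor did. In the opposite direction it was 32 members (45.7%) against 39.5% of the genes at the floor. On TMM-scaled CPM the counts were 18 and 27, against 31.5% and 27.3%.

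The second test compared propionate with butyrate. Before TNF-α, 0 of 70 members were called in either direction by limma-voom, where 0.0411% and 0.127% of all tested genes were called higher and lower with propionate. After TNF-α, 0 of 70 were called, against 0% and 0.00822%. edgeR and DESeq2 also called 0 members at both times, while 23 and 15 members had an unadjusted p under 0.05. Counts of unadjusted p and of intervals, in this and the other tests, were made for the members alone. They have no share over all genes beside them and are not read as a trait of the set. For 61 members before TNF-α and for 67 after it, the interval lay within 1.5-fold, and the median half-width was 0.18 and 0.19 on the log2 scale. The lowest log2 differences were -0.51 for KRT17 before and -0.46 for KRT19 after, and the highest were 0.51 and 0.33, both for BMP2. These bounds hold at 15 mM propionate and 3 mM butyrate, for genes chosen by this rule.

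Smaller differences passed the adjusted p without a fold threshold. Before TNF-α, BMP2 was higher with propionate by 0.51 ± 0.068 (SE; adjusted p = 0.0159) and ADAMTS3 by 0.44 ± 0.083 (adjusted p = 0.0416). KRT19 and IL18 were lower with propionate than with butyrate, with log2 differences of -0.35 ± 0.055 (adjusted p = 0.0209) and -0.40 ± 0.069 (adjusted p = 0.0290). After TNF-α only KRT19 passed, at -0.46 ± 0.056 (adjusted p = 0.0208), while IL18 stood at -0.45 ± 0.070 (adjusted p = 0.104) and BMP2 at 0.33 ± 0.068 (adjusted p = 0.251). With any 1 of the 4 libraries left out, none of the 4 genes passed before TNF-α, with adjusted p of 0.135 to 0.276 for BMP2, 0.260 to 0.396 for ADAMTS3, 0.144 to 0.276 for KRT19 and 0.168 to 0.350 for IL18. ADAMTS3 also missed the threshold with a replicate block (0.0552) and with edgeR (0.0548). After TNF-α, KRT19 passed only without TNBU replicate 2 (0.0450 to 0.117), and not with only the groups compared (0.853). At this threshold 0.238% and 0.337% of all tested genes passed before TNF-α, and 0.00411% and 0.0164% after it.

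Both times used separate libraries, and over the 70 genes their log2 differences between propionate and butyrate correlated with r = 0.89. The sign was shared by 56 members (80%). Over all genes at the floor r was 0.45 and the sign was shared by 73.4%. This is a correlation across genes, which are not independent replicates. Without overlap of CPM at both times, ASMTL, BMP2, DPYD, DUSP6, MAPK8IP1, RGS2, SLC48A1 and WDR17 were higher with propionate. These are 8 members (11.4%), where 9.65% of the genes at the floor behaved this way. Higher with butyrate were 11 members (15.7%, against 11.3%), among them CYP24A1, IL18, JAG2, KRT19, LZTS1, MAP2, SBK1, SLC2A3, TGM2 and TXNIP. On TMM-scaled CPM the counts were 11 and 11, against 12% and 9.18%. Both shares lie near those of all genes at the floor.

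**Figure D4:**
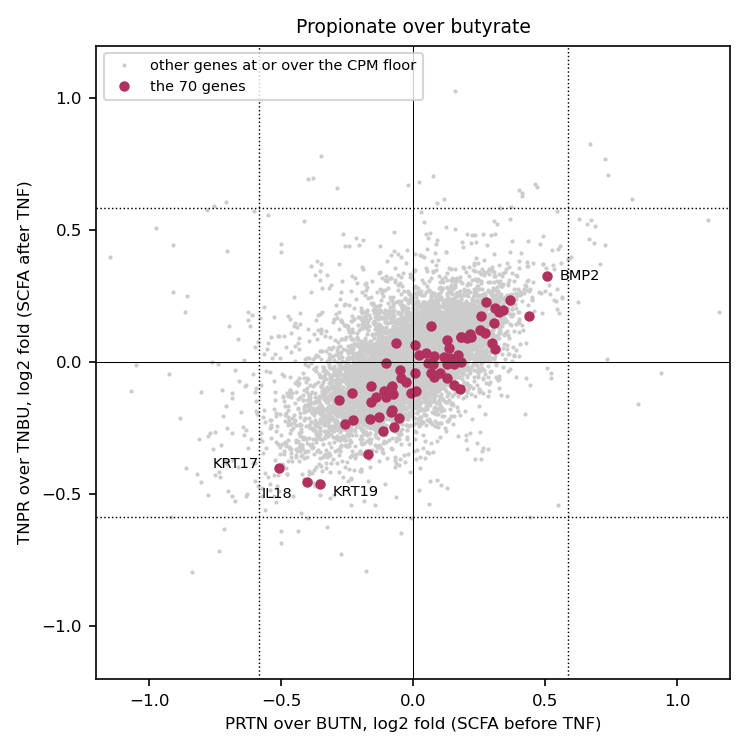
Each point is a gene, with the log2 fold of propionate over butyrate before TNF-α on the horizontal axis and after TNF-α on the vertical axis, members in red and other genes at or over the CPM floor in grey, and dotted lines at 1.5-fold. All 70 members lie inside the dotted lines, with BMP2 at the upper right and KRT17, IL18 and KRT19 at the lower left. The axes leave out 16 other genes.

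The third test compared addition after TNF-α with addition before it, a difference that the rule limits in the same way. The order of treatment and the time since TNF-α change together here and cannot be told apart, and whether TNF-α was removed before the SCFA is not given in the sources used here. With propionate, SAA1 was higher after TNF-α by 1.22 ± 0.096 on the log2 scale (SE; adjusted p = 0.000138) and SAA2 by 1.29 ± 0.13 (adjusted p = 0.00179). With butyrate, SAA1 was higher by 1.21 ± 0.095 (adjusted p = 0.000137), SAA2 by 1.33 ± 0.13 (adjusted p = 0.00111) and DKK1 by 0.93 ± 0.15 (adjusted p = 0.0145). These correspond to 2.32-fold to 2.52-fold for the SAA genes and 1.91-fold for DKK1.

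With propionate, DKK1 stood at 0.71 ± 0.14 (adjusted p = 0.0877), and the difference between both SCFAs was -0.23 ± 0.205 (SE; adjusted p = 0.9999). The DKK1 call with butyrate was lost without either BUTN library (adjusted p 0.127 and 0.191) and without TNBU replicate 2 (0.0690). NPPB was 0.64 ± 0.34 with propionate (adjusted p = 0.514) and 0.81 ± 0.33 with butyrate (adjusted p = 0.294), its replicates being far apart. In all, 2 members were called higher and 0 lower with propionate, against 0.0534% and 0.107% of all tested genes, and 3 higher and 0 lower with butyrate, against 0.0945% and 0.173%. At 0 lower, edgeR and DESeq2 also gave 0, and 21 and 23 members had an unadjusted p under 0.05 in either direction. Without a fold threshold MAP2 and CDKN1A were lower after TNF-α with propionate, at -0.36 ± 0.065 (adjusted p = 0.0469) and -0.32 ± 0.056 (adjusted p = 0.0380). Both missed the threshold with any 1 library left out (0.0811 to 0.337 for MAP2 and 0.0765 to 0.306 for CDKN1A), with a replicate block (0.0706 and 0.0581), with edgeR (0.0666 and 0.0705), with library size alone (0.0544 and 0.0587) and with only the groups compared (0.278 and 0.185). At this threshold 0.0822% and 0.181% of all tested genes were higher and lower with propionate, and 0.214% and 0.567% with butyrate, where 3 members were higher and 0 lower.

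For 62 members with propionate and 60 with butyrate, the 95% interval of the timing difference lay within 1.5-fold. Across the 70 genes the timing differences with propionate and with butyrate, from separate libraries, had r = 0.95. Over the genes at the floor r was 0.55. The sign was shared by 54 members (77.1%), near the 74.3% of the genes at the floor. With each SCFA, 4 members (SAA1, SAA2, DKK1 and NPPB) differed by over 1.5-fold, and their part in r was not tested. The median absolute log2 difference of the 70 was 0.135 (propionate) and 0.125 (butyrate). Genes are not independent replicates here either. Higher after TNF-α with both SCFAs, without overlap in CPM, were 11 members (15.7%, against 13.3% of the genes at the floor), among them SAA1, SAA2, DKK1, NPPB, RGS2 and WDR17. Higher before TNF-α were 10 (14.3%, against 11.6%), among them AREG, CGN, HPGD, KRT17, KRT19 and MAP2. On TMM-scaled CPM these counts were 6 and 13, against 9.58% and 16.6%. The named genes are in the count on both scales.

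**Figure D5:**
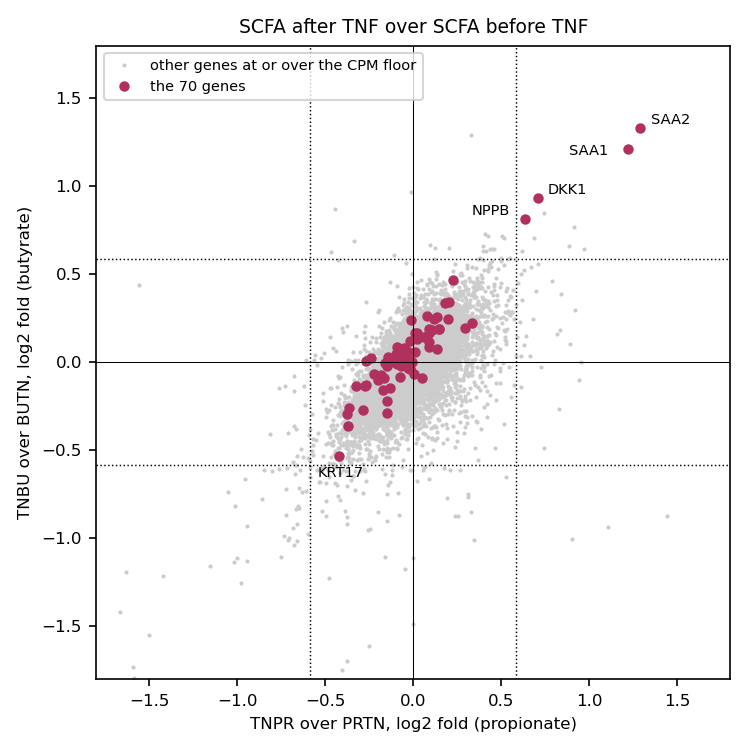
Each point is a gene, with the log2 fold of later over earlier addition for propionate on the horizontal axis and for butyrate on the vertical axis, members in red and other genes at or over the CPM floor in grey, and dotted lines at 1.5-fold. SAA1 and SAA2 lie at the upper right past 1.2 on both axes, DKK1 and NPPB come next, and KRT17 is the lowest member. The axes leave out 12 other genes.

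The last test asked whether the difference between both SCFAs changed with timing, which the rule limits too. Of the 70 genes, 0 were called by limma-voom, edgeR or DESeq2, 2 had an unadjusted p under 0.05, and 0% of all tested genes were called in either direction. The values ran from -0.28 (HSPA2) to 0.14 (AREG) on the log2 scale, and 60 of the 70 intervals lay within 1.5-fold. The median was -0.09 and 15 members (21.4%) were positive, against a median of 0.007 and 52.4% for the genes at the floor. Genes are not independent replicates, and this shift of the set was not tested.

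Replicates of the later addition spread more. In TNPR 6 members and in TNBU 4 members had replicates over 1.5-fold apart, replicate 2 being the higher, and 0 members did in each of the other groups. Of these, LUM, NPPB and SLN were apart in both groups. Other genes were not counted in this way. The median log2 difference between replicates of the members was 0.21 in TNPR and 0.14 in TNBU, and 0.045 to 0.12 in the other groups. For all genes at the floor it was 0.11 and 0.14, and 0.051 to 0.095 in the others. The part of this spread in the timing differences was not tested, but SAA1 and SAA2 were called with any 1 library of the groups compared left out, with log2 differences of 1.05 to 1.54. With only the groups compared in the fit, SAA1 was called for both SCFAs, whereas the adjusted p was 0.0887 and 0.0552 for SAA2 and 0.140 for DKK1.

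The members were compared with the genes around them. They lie on 20 chromosomes, with 11 on chromosome 1 (15.7%, against 10.1% of the genes at the floor), and 68 of 70 are protein coding. Start sites of members within 1 Mb of each other were SAA1 and SAA2, KRT19, KRT17 and KRTAP2-3 in the keratin cluster of chromosome 17, ETHE1 and CADM4, KITLG and DUSP6, and ADAMTSL4 and CGN. For 59 members another gene at the floor started within 250 kb. The nearest such neighbour had a median log2 difference between the SCFA groups and TN of 0.04, against -0.16 for all genes at the floor that are not members. Only 4 of the 59 neighbours (6.78%) exceeded a log2 of 1, against 5.98% of those genes, led by ESAM beside NRGN at 3.29-fold.

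Other genes known to rise with deacetylase inhibitors were taken from a fixed list of 16. Of the 12 that are not members, 8 were higher than TN and 2 lower in each of the 4 SCFA groups by limma-voom, where 23.9%, 23.1%, 24.9% and 25% of all tested genes were called higher in PRTN, BUTN, TNPR and TNBU, and 16.7%, 14.8%, 16.9% and 16.5% lower. DHRS2, a reductase that was nearly silent in TN at 0.656 CPM, reached 80.2 to 136 CPM in the SCFA groups. CDH1, ALPL and ALPP also lay under the floor beforehand, while GSN (96.4 CPM in TN, 288 to 304 with an SCFA) and TGFBR2 (56.9, and 127 to 135) were expressed but moved too little for the rule. CDKN1C and CDKN2B, which like CDKN1A inhibit cyclin-dependent kinases, were lower. CDKN1C measured 15.4 CPM in TN and 8.92 to 9.88 in the SCFA groups, and CDKN2B 52.7 and 18.6 to 26.04.

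Among the 8 CDK inhibitors, CDKN1A was the only member. Of the other 7, 2 were higher and 3 or 4 lower than TN. For this list and those below, 23.1% to 25% of all tested genes were called higher and 14.8% to 16.9% lower. Listed genes near 0 without an SCFA, such as SYT17, BEX1 and S100B, passed the filter for testing through the SCFA libraries. Counts of genes called higher in their lists are thus partly fixed by it. Of 11 histone deacetylase genes, none was a member, 4 were higher and 1 was lower in each SCFA group. Of 15 histone genes that are not members, 1 to 3 were higher and 5 lower. The 15 tubulins held no member, with 6 higher and 4 lower. Of 24 tested genes of synaptotagmins, SNAREs and regulated exocytosis, a list without UNC13A, 16 or 17 were higher and 0 or 1 lower, and none was a member. The BEX and TCEAL genes (11 tested) gave 5 or 6 higher and 1 or 2 lower, and the S100 genes (13 tested) 4 or 5 higher and 6 lower, with no member in either.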

How the data were processed

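RNA from HK2 cells was sequenced in 12 libraries, 2 biological replicates for each of 6 groups named by the labels. Whether replicates were separate cultures is not stated further, and p-values measure the spread between them. As deposited, each gene has an expected count that the authors estimated with RSEM after alignment with STAR 2.6.1a to GRCh38 with GENCODE 26, with FastQC 0.11.5 for read quality. Libraries were made with a TruSeq Stranded mRNA kit. Whether RSEM counted by strand is not given in the sources used here, so values of genes with an antisense partner are uncertain. Of all values, 19.3% were not whole.

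CPM are unscaled. Tests were run with limma-voom (limma 3.58.1, edgeR 4.0.16, R 4.3.3) with TMM factors (0.913 to 1.06) over 24342 genes with a geometric mean of at least 1 after 1 was added to each count, in a fit of all 12 libraries without a block. P-values were adjusted by Benjamini-Hochberg. A call needed a fold over 1.5 and an adjusted p under 0.05. The scripts were tested on simulated data. Alternatives were edgeR and DESeq2 1.42.0 on rounded counts, other scalings and filters, a replicate block and leaving out libraries. The threshold without a fold was added after the data were seen.

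The members, their role groups and the gene lists (genes known to rise with deacetylase inhibitors, histone deacetylases, histones, tubulins, exocytosis, BEX and TCEAL, S100, CDK inhibitors and cell markers) were chosen with earlier results of these data known. Genes were named by the highest CPM or ratio (12 each), by distance to the thresholds, by a call (up to 5 per direction) or from a list. The other members were named after their values were seen. Lengths and positions are from GENCODE 44, which held all 70 members. Floors cover counting error only. Some genes are not reported here by name.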

Additional observations from a re-analysis of the deposited data

How the results depend on the processing

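The set depends on its thresholds. It held 70 genes as described, 52 on TMM-scaled CPM (all among the 70), 145 and 23 with a CPM floor of 1 and 10, 136 and 40 at over 3-fold and over 5-fold, 82 by group means and 70 to 74 with 1 library left out. The median ratio of 5.24 became 8.532 as the highest SCFA group mean over TN. In TN against Ctrl, the 2 higher members became 1 with library size alone, 1 without the filter, 0 at over 2-fold and 1 to 2 with 1 library left out, and the 1 lower member became 0, 0 and 0 without the filter, at over 2-fold and with any library left out. Without a fold threshold there were 3 lower members in TN, 2 higher and 2 lower in PRTN against BUTN, 1 lower in TNPR against TNBU and 2 lower in TNPR against PRTN. Addition after against before TNF-α kept 1 higher member (SAA1) for each SCFA with only the groups compared, and 2 to 3 (propionate) and 2 to 4 (butyrate) with 1 library left out. DKK1 joined without TNPR replicate 1, and NPPB without TNBU replicate 1. DESeq2 called 3 members higher in TN (adding DUBR) and 3 in TNPR against PRTN (adding DKK1). No result changed direction, and the cause of these changes was not tested.

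Whether the replicate numbers pair the samples could not be decided. Of 15 pairs of groups, 1 had a correlation of deviations over 0.1 (range -0.0458 to 0.109). A low correlation does not show that samples were unpaired. Of the 70 members, 58 in TNPR and 54 in TNBU had replicate 2 above replicate 1. This was not counted for other genes. Genes of the mitochondrial genome held 9.46% of counts in TNPR replicate 1 and 5.86% in TNBU replicate 1. In the other libraries they held 7.19% to 8.46%, and the part of this in the replicate differences was not tested. A replicate effect shared by TNPR and TNBU alone was not tested. With a replicate block, 2 members were higher and 1 lower in TN, 3 higher in TNPR against PRTN (adding DKK1) and 3 in TNBU against BUTN. It called 0 in the other comparisons.

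With 2 libraries per group and 44 of the 70 members under 10 CPM without an SCFA, the interval of the difference between TN and Ctrl reached 1.5-fold for 36 members. The incomplete promoter table and reads shared by SAA1 and SAA2 limit the other statements.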
